A study of Mus musculus with 4 samples.

Results

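Of the Schlafen gene family, 7 mouse genes were examined here in 2 immune cell populations sorted from day 5 skin wounds: CD301b macrophages, and immune cells negative for F4/80. The members (Slfn1, Slfn2, Slfn3, Slfn4, Slfn5, Slfn8 and Slfn9) were taken by gene symbol from the transcript table of the study, in which they accounted for 9 transcripts and 7 of 13039 genes with a tested transcript. All 7 members were measured above 1 FPKM in both populations and all had a tested transcript. Slfn4 was 2.40-fold lower in CD301b macrophages, Slfn5 and Slfn8 were 1.55-fold and 1.60-fold higher, and the remaining 4 members were not past the threshold.

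CD301b macrophages are wound macrophages that carry the C-type lectin CD301b, and the F4/80-negative cells are immune cells of the same wound beds that lack the surface protein most used to mark mouse macrophages. Each population was represented by 2 RNA libraries from the dermis of 7-week-old male C57/Bl6 mice, and both came from day 5 wound beds. The cells were sorted by flow cytometry. Unwounded skin and wound macrophages without CD301b were not analysed here, so a trait of the CD301b subset cannot be told apart from one of wound macrophages in general. Whether the libraries came from separate animals is not stated in the labels. The table gives 1 FPKM value per transcript and population (fragment counts scaled to transcript length and to library size), so no spread between libraries accompanies any level below, and the depth of the libraries is unknown. The FPKM of a gene is the sum over its transcripts. Calls rest on p-values that Cuffdiff gave in the authors' deposited table, after Benjamini-Hochberg adjustment over 16921 tested transcripts, at an adjusted p of at most 0.05. Every adjusted p below was computed here from those deposited Cuffdiff p-values, which are unadjusted.

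Schlafen proteins are found in mammals, and in mice their genes lie side by side in a single cluster. They share a core domain that takes part in the handling of RNA, and they are grouped by size. The short members hold little beyond that core, the intermediate members add a further region, and the long members also carry a helicase-like part. Several members are known to be induced by type I interferon, and the family has been studied in the growth control of T cells, in macrophage activation and in the restriction of viruses. The 7 members lay within 263.8 kb of chromosome 11 (82951349 to 83215154, GRCm38), in the order Slfn5, Slfn9, Slfn8, Slfn2, Slfn1, Slfn4 and Slfn3.

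The populations matched their macrophage label in part. All 10 genes of a macrophage marker list were higher in CD301b macrophages, where 11.0% of all genes tested were. Their summed level was 7928 FPKM in CD301b macrophages and 2683 FPKM in F4/80-negative cells. Adgre1, one of these 10, encodes F4/80, the protein by which the other population was sorted, so it is no independent support for the label. It was 557 FPKM in CD301b macrophages and still 151 FPKM in F4/80-negative cells. Mgl2, which encodes CD301b, went against the sort at 49.2 FPKM in CD301b macrophages and 103 FPKM in F4/80-negative cells. In sorted bulk samples, fewer cells of a type and less RNA per cell cannot be told apart.

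Slfn2 was the most abundant member in both populations. In CD301b macrophages the order of levels was Slfn2 (245 FPKM), Slfn5 (39.6 FPKM), Slfn4 (33.4 FPKM), Slfn1 (23.9 FPKM), Slfn8 (15.8 FPKM), Slfn3 (3.55 FPKM) and Slfn9 (3.15 FPKM). In F4/80-negative cells it was Slfn2 (195 FPKM), Slfn4 (80.2 FPKM), Slfn5 (25.5 FPKM), Slfn1 (20.2 FPKM), Slfn8 (9.90 FPKM), Slfn3 (3.06 FPKM) and Slfn9 (2.36 FPKM). The orders differ in the places of Slfn4 and Slfn5 alone, and whether neighbours in either order differ beyond their spread cannot be said without values per library. Slfn2 made up 67.3% of the summed family level in CD301b macrophages and 58.0% in F4/80-negative cells, whereas Slfn4 made up 9.15% in CD301b macrophages and 23.9% in F4/80-negative cells.

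**Figure D1:**
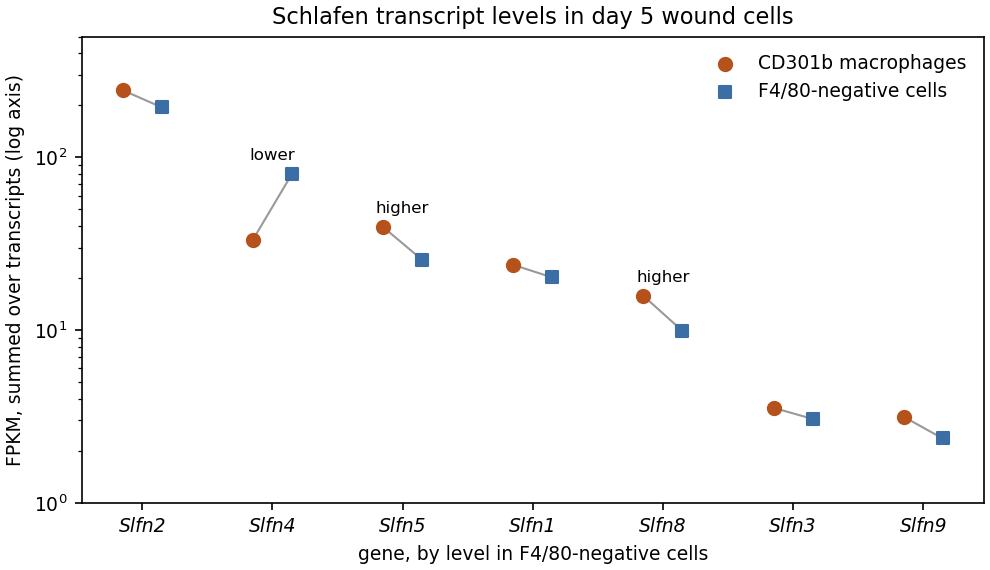
FPKM of each Schlafen gene, summed over its transcripts, on a log axis, with CD301b macrophages as circles and F4/80-negative cells as squares (1 value per population, no error available). Slfn4 is the single member with the lower point in CD301b macrophages (33.4 against 80.2 FPKM), and the words mark the 3 members past the threshold.

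The family as a whole was nearly level between the populations. Its summed level was 365 FPKM in CD301b macrophages and 336 FPKM in F4/80-negative cells, a ratio of 1.08. Without Slfn4 the sums were 331 FPKM in CD301b macrophages and 256 FPKM in F4/80-negative cells, a ratio of 1.29. Without Slfn2 they were 119 FPKM in CD301b macrophages and 141 FPKM in F4/80-negative cells, a ratio of 0.845, so the near-equal totals rest on both genes. By summed FPKM, 6 members had the larger value in CD301b macrophages and 1 the smaller. At the threshold, 2 of 7 members were higher, where 11.0% of all genes tested were, and 1 of 7 was lower, where 6.20% of all genes tested were. In either direction, 3 of 7 members and 17.2% of all genes tested had a call. With 7 members these counts are too small to set the family apart from other genes. The median log2 fold of the members was 0.31 and that of all genes tested 0.05. Log2 folds here are of FPKM + 1, so the change of a low gene is understated.

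**Figure D2:**
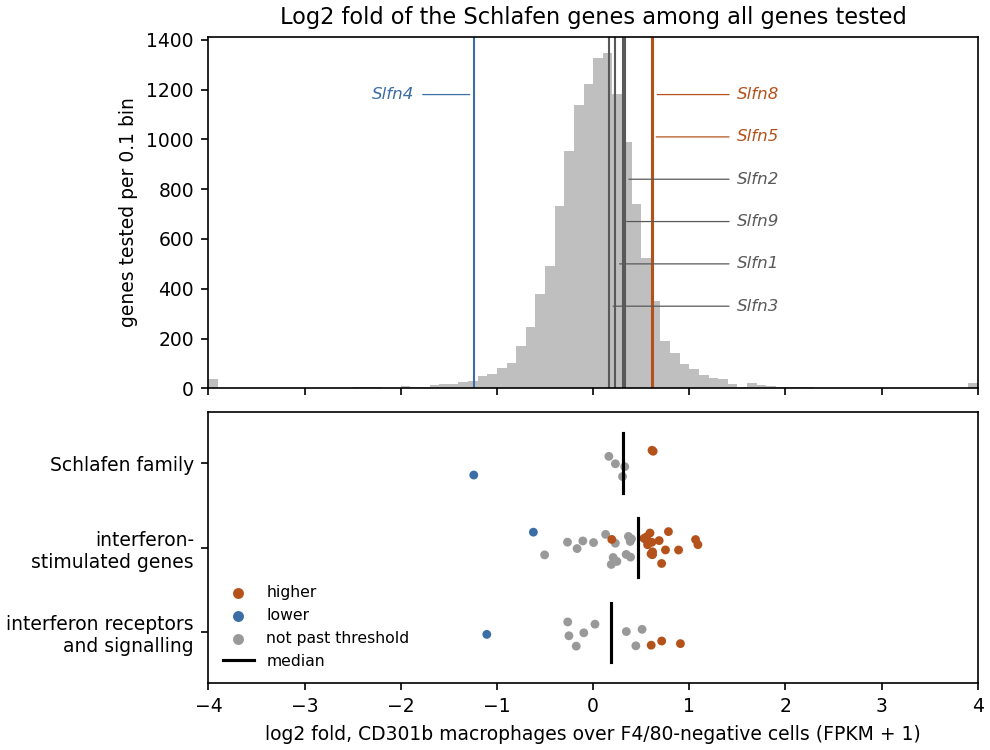
Log2 fold of CD301b macrophages over F4/80-negative cells on the log2(FPKM + 1) scale: above, the distribution over the 13039 genes tested, with values beyond the axis gathered in the end bins and the 7 Schlafen genes as lines; below, the single genes of the family and of both interferon lists, coloured by call, with the median of each list as a bar. Slfn4 lies in the left tail at -1.24, Slfn5 and Slfn8 lie together at 0.61 and 0.62, and the other members lie between 0.16 and 0.33.

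Slfn4 is an intermediate member that is induced when macrophages are activated and marks a population of suppressive myeloid cells in the infected mouse stomach. The gene (NCBI gene 20558, chromosome 11, 83175172 to 83190216) was 33.4 FPKM in CD301b macrophages and 80.2 FPKM in F4/80-negative cells, 2.40-fold lower (log2 fold -1.24, adjusted p = 0.000999 by Cuffdiff in the authors' deposited table). That p is the smallest the table allows and is shared by 847 transcripts. Of all genes tested, 1.39% had a lower log2 fold than Slfn4. Both annotated transcripts carried the difference. NM_001302559 was 22.1 FPKM in CD301b macrophages and 53.0 FPKM in F4/80-negative cells, 2.40-fold lower. NM_011410 was 11.3 FPKM in CD301b macrophages and 27.3 FPKM in F4/80-negative cells, 2.41-fold lower. Both passed the threshold in the authors' deposited table. The use of the transcripts was alike in the populations, with NM_001302559 at 66.1% of the Slfn4 level in CD301b macrophages and 66.0% in F4/80-negative cells.

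Some markers of other cell types were lower in CD301b macrophages along with Slfn4, and others were not. Of 10 dendritic cell markers, 7 were lower and none higher, where 6.20% of all genes tested were lower and 11.0% higher. Their summed levels were 68.2 FPKM in CD301b macrophages and 252 FPKM in F4/80-negative cells. Flt3, a growth factor receptor of dendritic cells and their precursors, was 2.56 FPKM in CD301b macrophages and 16.3 FPKM in F4/80-negative cells. Of 9 monocyte markers, 5 were lower and 1 was higher, with sums of 1361 FPKM in CD301b macrophages and 1494 FPKM in F4/80-negative cells. Ly6c2, a marker of recently arrived monocytes with a close copy in Ly6c1, was 37.6 FPKM in CD301b macrophages and 107 FPKM in F4/80-negative cells, while F13a1, coagulation factor XIII, was 399 FPKM in CD301b macrophages and 104 FPKM in F4/80-negative cells. Of 9 neutrophil markers in the table, 4 were lower and 1 was higher, with sums of 2286 FPKM in CD301b macrophages and 4175 FPKM in F4/80-negative cells. Most of both sums came from S100a8 (938 and 1725 FPKM, in the same order) and S100a9 (1092 and 2025 FPKM). Il1r2 was also lower (99.3 and 249 FPKM). Csf3r was counted as lower at 68.1 and 71.3 FPKM, and Ngp was higher at 2.78 and 0.464 FPKM. The median log2 fold of the list was -0.06. No marker of these lists was listed at 0 in either population, and their part in the Slfn4 result was not tested.

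Slfn3 is the other intermediate member, known from work on the differentiation of gut epithelium, and it lies directly beyond Slfn4 on the same strand. It was 3.55 FPKM in CD301b macrophages and 3.06 FPKM in F4/80-negative cells (log2 fold 0.16, adjusted p = 0.625 by Cuffdiff in the authors' deposited table) and was not past the threshold. Its level was far under that of Slfn4 in both populations. Slfn3 and Slfn4 share some sequence: 7.39% of the 50-base words in Slfn3 transcripts also occur in Slfn4 transcripts, and 6.28% of the words in Slfn4 transcripts occur in Slfn3. In all, 16.0% of the Slfn3 words occur in another gene, among them 6.45% in Gm11427. Of the Slfn4 words, 11.3% occur in another gene, among them 4.0% in Gm11427. Reads that fall in words shared by Slfn3 and Slfn4 could belong to either gene. Since Slfn4 was far more abundant, even a small share of its reads would weigh heavily on the Slfn3 value, which is uncertain. How much of the Slfn3 level came from such reads was not tested. Whether the folds of Slfn4 and Slfn3 differ was not tested.

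The promoter of Slfn4 is shown because its gene was lower while the neighbours were not. Promoters here are the 300 bases from 250 before to 50 after an annotated transcript start, from RefSeq (GRCm38.p6), written 5′ to 3′ along the gene. Capitals mark an ETS-type site (CAGGAAGT on either strand, here read as ACTTCCTG) and an AP-1 site (TGANTCA, here TGACTCA). The letters of all motifs named here were chosen after the sequences had been read, and no matches of different motifs overlap in the members.
Slfn4 promoter, chr11:83174936-83175235, plus strand: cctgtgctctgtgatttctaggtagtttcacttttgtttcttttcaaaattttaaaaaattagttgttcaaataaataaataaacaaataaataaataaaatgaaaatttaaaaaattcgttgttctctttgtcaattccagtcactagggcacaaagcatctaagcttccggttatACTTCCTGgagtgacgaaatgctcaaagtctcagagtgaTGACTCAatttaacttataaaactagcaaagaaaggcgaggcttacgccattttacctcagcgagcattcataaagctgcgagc
The ETS-type site of Slfn4 lay from -73 to -66 and the AP-1 site from -34 to -28 relative to the start. Of 32851 mouse promoters of the same length, 7.81% held the AP-1 letters and 3.33% the ETS-type letters on either strand. Slfn4 was the single member with the AP-1 letters in this window. Of the other members, Slfn1 (-74 to -67) and Slfn2 (-55 to -48) held the ETS-type letters once, and Slfn3 held them in both orientations (-60 to -53 and -42 to -35). Slfn5, Slfn8 and Slfn9 held neither motif. A match is a description of the letters and not of binding.

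The long members Slfn5 and Slfn8 were higher in CD301b macrophages. Slfn5, whose human counterpart is an interferon-induced inhibitor of herpesvirus transcription, was 39.6 FPKM in CD301b macrophages and 25.5 FPKM in F4/80-negative cells, 1.55-fold higher (NCBI gene 327978, log2 fold 0.61, adjusted p = 0.0151 by Cuffdiff in the authors' deposited table). Slfn8, a member of the long group that also includes the human replication stress factor SLFN11, was 15.8 FPKM in CD301b macrophages and 9.90 FPKM in F4/80-negative cells, 1.60-fold higher (NCBI gene 276950, log2 fold 0.62, adjusted p = 0.0387 likewise by Cuffdiff in the authors' deposited table). The log2 folds of Slfn5 and Slfn8 exceeded those of 91.9% and 92.3% of genes tested. Both calls end at an adjusted p of 0.01, where Slfn4 is the sole member left.

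The Slfn8 call rested on a single transcript. NM_181545 was 11.4 FPKM in CD301b macrophages and 7.20 FPKM in F4/80-negative cells and passed the threshold. NM_001167743 was 4.43 FPKM in CD301b macrophages and 2.70 FPKM in F4/80-negative cells, a ratio of 1.64, with an adjusted p of 0.218 by Cuffdiff in the authors' deposited table. The main transcript held 71.9% of the Slfn8 level in CD301b macrophages and 72.7% in F4/80-negative cells. As for Slfn4, the balance of transcripts was close to equal in the populations.

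Slfn9 is the third long member measured (NCBI gene 237886) and lies next to Slfn8 among the members. It was 3.15 FPKM in CD301b macrophages and 2.36 FPKM in F4/80-negative cells, a ratio of 1.34 (adjusted p = 0.234 by Cuffdiff in the authors' deposited table), and was not past the threshold. Summed over Slfn5, Slfn8 and Slfn9, the long members were 58.5 FPKM in CD301b macrophages and 37.8 FPKM in F4/80-negative cells, a ratio of 1.55. Of the words in Slfn8 transcripts, 9.30% also occur in Slfn9 and 10.1% in the pseudogene Slfn10-ps. Of the words in Slfn9 transcripts, 6.52% occur in Slfn8 and 8.10% in Slfn10-ps. These values are uncertain, above all that of Slfn9, which was less abundant than Slfn8, and the size of the error is not given by the share of words. Of the words in Slfn5 transcripts, 11.1% also occur in another gene, but none in another Schlafen gene. The antisense transcript Slfn5os, which overlaps 559 exonic bases of Slfn5 on the other strand, shared 7.39% of the Slfn5 words. Slfn5os was 1.27 FPKM in CD301b macrophages and 0.757 FPKM in F4/80-negative cells, and reads of the overlap cannot be told apart unless the counting used strand.

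**Figure D3:**
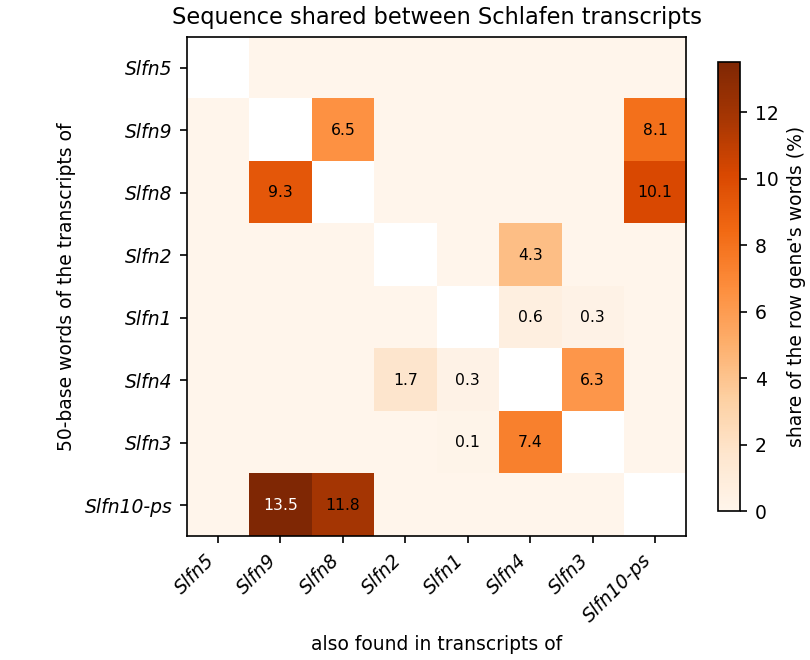
Share of the 50-base words in the transcripts of each Schlafen gene (rows) that also occur in the transcripts of another (columns), in percent, from GENCODE M21 transcripts. The shared words fall into a block of Slfn8, Slfn9 and Slfn10-ps (6.5 to 13.5%) and a block of Slfn4 with Slfn3, Slfn2 and Slfn1 (at most 7.4%).

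The promoters of the long members are shown because each held the core letters of an interferon-stimulated response element, a site found in the promoters of many interferon-induced genes. Capitals mark the core searched on either strand: GAAA, any 2 bases, and GAAA again.
Slfn5 promoter, chr11:82951852-82952151, plus strand: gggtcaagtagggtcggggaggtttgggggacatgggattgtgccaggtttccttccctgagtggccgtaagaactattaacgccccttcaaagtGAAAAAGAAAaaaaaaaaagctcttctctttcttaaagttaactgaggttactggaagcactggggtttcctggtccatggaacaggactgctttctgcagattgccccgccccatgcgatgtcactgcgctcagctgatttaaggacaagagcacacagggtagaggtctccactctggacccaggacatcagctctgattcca
Slfn8 promoter, chr11:83020761-83021060, minus strand: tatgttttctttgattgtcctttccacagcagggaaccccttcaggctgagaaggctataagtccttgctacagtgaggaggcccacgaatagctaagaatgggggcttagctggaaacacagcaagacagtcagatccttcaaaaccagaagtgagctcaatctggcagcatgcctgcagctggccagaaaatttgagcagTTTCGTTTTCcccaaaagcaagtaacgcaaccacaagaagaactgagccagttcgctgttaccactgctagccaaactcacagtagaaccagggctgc
Slfn9 promoter, chr11:82991781-82992080, minus strand: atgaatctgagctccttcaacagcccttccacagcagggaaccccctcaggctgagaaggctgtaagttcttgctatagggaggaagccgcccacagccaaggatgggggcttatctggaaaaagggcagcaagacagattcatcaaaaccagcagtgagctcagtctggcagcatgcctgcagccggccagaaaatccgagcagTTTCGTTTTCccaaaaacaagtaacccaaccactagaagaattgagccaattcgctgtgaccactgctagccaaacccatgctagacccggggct
In Slfn5 the letters GAAAAAGAAA lay from -155 to -146, counted from an annotated start that lies inside the span of the gene. Slfn8 and Slfn9 shared the letters GAAAACGAAA on the opposite strand, from -48 to -39 in Slfn8 and from -45 to -36 in Slfn9. Slfn8 has a second annotated start whose window overlaps the first and holds the same match. The Slfn8 and Slfn9 promoters shared 248 identical bases of 300 (82.7%) in a global alignment, so their matches do not count as independent. No other pair of member promoters was above 56.3%. Of all 32851 promoters, 3.44% held this core, and of 25 genes of the interferon-stimulated list with a promoter entry, 12 held it (48.0%). None of the member promoters held a gamma-activated site (TTCNNNGAA), which 8.30% of all promoters held. The 4 short and intermediate members held no such core in this window, which says nothing about whether interferon induces them.

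The short members were abundant and not past the threshold. Slfn2, which in T cells binds transfer RNA and shields it from cleavage by angiogenin and whose loss breaks T cell quiescence, was 245 FPKM in CD301b macrophages and 195 FPKM in F4/80-negative cells (NCBI gene 20556, log2 fold 0.33, adjusted p = 0.300 by Cuffdiff in the authors' deposited table). By level it stood at rank 349 of the genes tested in CD301b macrophages and at rank 387 in F4/80-negative cells, above 97.3% and 97.0% of them. Slfn1, which restrains the growth of thymocytes, was 23.9 FPKM in CD301b macrophages and 20.2 FPKM in F4/80-negative cells (NCBI gene 20555, log2 fold 0.23, adjusted p = 0.470 likewise by Cuffdiff in the authors' deposited table). Slfn1 had the most distinct transcript of the members, with 99.4% of its words found in no other gene, against 95.7% for Slfn2. The Slfn2 promoter is shown because the gene is the most abundant member and because its ETS-type site, in capitals, has a counterpart in Slfn1, Slfn3 and Slfn4.
Slfn2 promoter, chr11:83064862-83065161, plus strand: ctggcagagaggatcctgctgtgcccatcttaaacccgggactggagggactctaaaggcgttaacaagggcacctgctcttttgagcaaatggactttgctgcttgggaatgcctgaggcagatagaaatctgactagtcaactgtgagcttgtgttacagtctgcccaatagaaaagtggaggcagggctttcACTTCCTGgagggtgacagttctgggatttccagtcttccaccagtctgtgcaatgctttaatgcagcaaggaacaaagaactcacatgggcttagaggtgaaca

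Most T cell markers were low in both populations. Of 13 in the table, 5 were under 1 FPKM in both, among them Cd3e, of the T cell receptor complex, at 0.399 FPKM in CD301b macrophages and 0.415 FPKM in F4/80-negative cells. Their summed levels were 40.8 FPKM in CD301b macrophages and 34.1 FPKM in F4/80-negative cells, of which Cd4, carried by T cells and by some myeloid cells, gave 18.6 FPKM in CD301b macrophages and 4.92 FPKM in F4/80-negative cells. Of the 11 tested, Cd4 and the costimulatory receptor Cd28 were higher and the interleukin-7 receptor Il7r was lower. Over all genes tested, 17.2% had a call in either direction. Il7r was 9.40 FPKM in CD301b macrophages and 16.8 FPKM in F4/80-negative cells, where it was the largest value of the list. The median log2 fold of the list was -0.24 and its mean 0.03, which differ in sign. The part of T cells in the Slfn2 level was not tested.

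Genes around the nuclease that Slfn2 opposes in T cells were looked at as a group. Of 9 tested transfer RNA nucleases, their inhibitor and transfer RNA methyltransferases, 2 were higher and 1 was lower, where 17.2% of all genes tested had a call. The median log2 fold of the 9 was 0.16 and that of all genes tested 0.05. Ang, which encodes angiogenin, was 42.4 FPKM in CD301b macrophages and 23.6 FPKM in F4/80-negative cells, 1.80-fold higher (adjusted p = 0.00258 by Cuffdiff in the authors' deposited table). Rnaset2a, a lysosomal ribonuclease with a near-identical copy in Rnaset2b, was 101 FPKM in CD301b macrophages and 50.5 FPKM in F4/80-negative cells. The copy Rnaset2b was 147 FPKM in CD301b macrophages and 138 FPKM in F4/80-negative cells, and reads could fall to either copy of the pair. Rnh1, the ribonuclease inhibitor that binds angiogenin, was 179 FPKM in CD301b macrophages and 195 FPKM in F4/80-negative cells and was counted as lower through 1 of its 3 transcripts.

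Interferon-stimulated genes were more often higher than lower in CD301b macrophages. Of 34 tested, 18 were higher and 1 was lower, leaving 15 without a call, where 11.0% of all genes tested were higher and 6.20% lower. The median log2 fold of the list was 0.46 beside 0.31 for the Schlafen genes and 0.05 over all genes tested. At an adjusted p of 0.01 the counts were 8 higher and 0 lower, where 848 of all 13039 genes tested were higher and 461 lower. Requiring also a 1.5-fold difference at 0.05 left 13 higher and 1 lower, where 1263 of all genes tested were higher and 744 lower. Ifit2 and Ifit3, which bind viral RNA or its partners, were 2.32-fold and 2.15-fold higher. Lgals3bp, a secreted glycoprotein, was 271 FPKM in CD301b macrophages and 146 FPKM in F4/80-negative cells, and Oas3, a sensor of double-stranded RNA, was 21.2 FPKM in CD301b macrophages and 11.9 FPKM in F4/80-negative cells. Isg15, a ubiquitin-like protein, was the lower member of the list at 65.9 FPKM in CD301b macrophages and 102 FPKM in F4/80-negative cells. The log2 folds of Slfn5 and Slfn8 lay inside the range of this list, between those of Isg15 (-0.62) and Ifit2 (1.09), and that of Slfn4 (-1.24) lay below it.

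Interferon receptors and signalling genes gave 3 higher and 1 lower of 12, where 17.2% of all genes tested had a call in either direction. Their median log2 fold was 0.18, beside 0.05 over all genes tested. Irf9, a transcription factor of the type I interferon response, was 33.3 FPKM in CD301b macrophages and 21.5 FPKM in F4/80-negative cells, and Stat2, which acts together with Irf9, was 22.0 FPKM in CD301b macrophages and 21.7 FPKM in F4/80-negative cells and not past the threshold. Ifnar2, a chain of the type I interferon receptor, was 106 FPKM in CD301b macrophages and 64.1 FPKM in F4/80-negative cells. Jak2, a kinase of the interferon gamma receptor and of several cytokine receptors, was the lower member at 20.9 FPKM in CD301b macrophages and 46.1 FPKM in F4/80-negative cells. The Jak2 difference was 2.21-fold.

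Slfn4 was the one gene called lower along the cluster and its flanks. Slfn1, the nearest member before Slfn4, had a ratio of 1.18 between CD301b macrophages and F4/80-negative cells, and Slfn3, the next gene after it, a ratio of 1.16. AI662270, the next gene beyond Slfn3, was 46.7 FPKM in CD301b macrophages and 48.5 FPKM in F4/80-negative cells (adjusted p = 0.871 by Cuffdiff in the authors' deposited table). On the other side, Unc45b, a myosin chaperone next to Slfn5, was 0.573 FPKM in CD301b macrophages and 0.583 FPKM in F4/80-negative cells. The other flanking genes were Rad51d (1.97 FPKM in CD301b macrophages and 1.22 FPKM in F4/80-negative cells), Nle1 (2.04 FPKM in CD301b macrophages and 2.53 FPKM in F4/80-negative cells), AA465934 (0.941 FPKM in CD301b macrophages and 1.45 FPKM in F4/80-negative cells) and AI450353 (0.445 FPKM in CD301b macrophages and 0.768 FPKM in F4/80-negative cells). None passed the threshold. Of the flanking genes not tested, Snord7 was 0 FPKM in CD301b macrophages and 4.96 FPKM in F4/80-negative cells. Fndc8, also not tested, was 0.0131 FPKM in CD301b macrophages and 0.0293 FPKM in F4/80-negative cells. Slfn10-ps was 3.26 FPKM in CD301b macrophages and 2.68 FPKM in F4/80-negative cells and not past the threshold. Slfn14, at the far end of the cluster beyond AI662270, and Slfnl1, a related gene on chromosome 4, were listed at 0 in both populations.

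**Figure D4:**
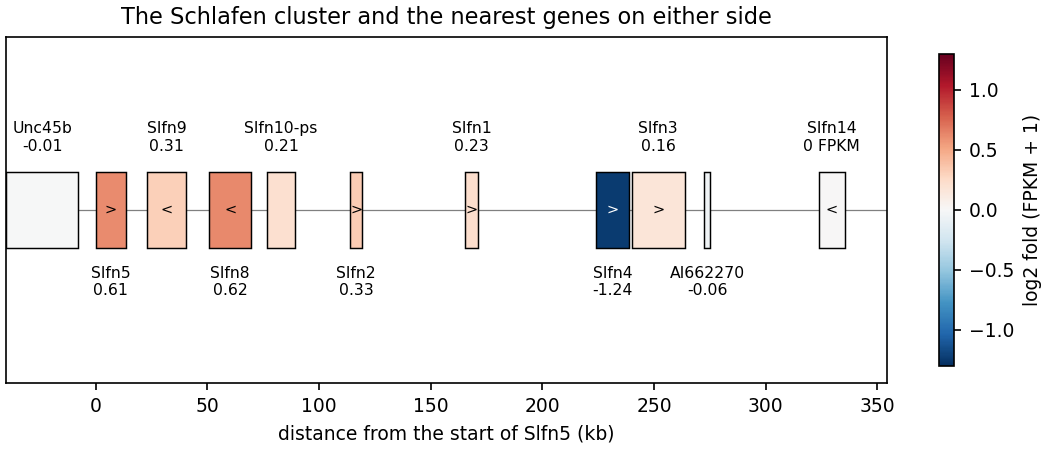
The Schlafen cluster drawn to scale by distance from the start of Slfn5 in kilobases, with the nearest other table gene on either side of the members. Slfn14 lies beyond 1 of these, AI662270. Boxes are genes coloured by log2 fold of CD301b macrophages over F4/80-negative cells on the log2(FPKM + 1) scale, and arrowheads give the strand where known. Slfn4 (-1.24) lies between Slfn1 (0.23) and Slfn3 (0.16), and Slfn5 (0.61) and Slfn8 (0.62) lie on either side of Slfn9 (0.31).

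The genes closest to each called member by their levels in both populations (smallest distance in the pair of log2(FPKM + 1) values) were listed for reference, and with 2 populations such likeness carries little information. Nearest to Slfn4 were Rgcc, a regulator of the cell cycle (35.9 FPKM in CD301b macrophages and 83.7 FPKM in F4/80-negative cells), the survival gene Bcl2a1a, which has near-identical copies (30.6 FPKM in CD301b macrophages and 81.4 FPKM in F4/80-negative cells), and Ptx3, a secreted pattern receptor (30.1 FPKM in CD301b macrophages and 81.1 FPKM in F4/80-negative cells). Nearest to Slfn5 were Drg1, Nipa2 and Abcc1, the closest being Drg1 at 39.1 FPKM in CD301b macrophages and 25.6 FPKM in F4/80-negative cells. Nearest to Slfn8 were Bcl6, Dera and the interferon-inducible GTPase Gvin1, at 15.5 to 16.1 FPKM in CD301b macrophages and 9.76 to 9.97 FPKM in F4/80-negative cells.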

How the data were processed

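RNA of 2 libraries of CD301b macrophages and 2 of F4/80-negative immune cells was sequenced after an Illumina TruSeq mRNA preparation, per the labels' protocols. TopHat2 2.0.2, Cuffdiff 2.0.2 and the build mm9 are named, per the submitters' processing notes. The authors deposited 1 table of 34535 transcripts with an FPKM for each population, per the file headers. The strand setting and the way of combining libraries were not given in the sources used here. An unadjusted p-value per transcript was also deposited, none under 5e-05. Benjamini-Hochberg adjustment over the 16921 tested transcripts matched the deposited calls in every transcript (2408 calls) and was tested on simulated data. Of the accessions, 97.1% were found in RefSeq for GRCm38.p6, and 99.2% of these overlapped their gene there, so coordinates are those of GRCm38, counted from 1. No test of differences was run, since the table holds 1 value per population. Replicates may be technical.

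FPKM was summed over the transcripts of a symbol. A call required 1 or more transcripts at an adjusted p of 0.05, none of them in the opposite direction, and a sum on the same side. The adjusted p of a gene is the smallest among its transcripts and does not test the sum. The members and the 8 gene lists were chosen with earlier results of these data known. The lists covered interferon-stimulated genes, interferon receptors and signalling, transfer RNA nucleases and methyltransferases, and markers of T cells, monocytes, neutrophils, dendritic cells and macrophages. By rule, the named genes were all members, other genes named Slfn and the nearest 4 genes on either side of the members. The rule added the 3 genes nearest to each called member. From each list it took up to 4 called genes with the largest log2 fold that reached 5 FPKM (otherwise its 2 most abundant). Of the genes so taken from the dendritic cell, monocyte and macrophage lists, only some are printed. Ccr7, with the largest log2 fold of the dendritic cell list (-2.78), is among those left out. A named gene of the signalling list is not reported here. Genes outside this rule, among them Isg15, Stat2, Rnaset2b, Cd28, Cd3e and Mgl2, were chosen after their values were seen. Of the members, 7 matched the RefSeq promoters. Words of 50 bases were compared over all GENCODE M21 transcripts on both strands. Promoters were aligned globally with Biopython. Tables were handled in pandas 2.3.3 and numpy 2.4.6 under Python 3.11.15.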

Additional observations from a re-analysis of the deposited data

How the results depend on the processing

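At an adjusted p of 0.01 instead of 0.05, 1 Schlafen gene was called (Slfn4) instead of 3, 8 interferon-stimulated genes instead of 19, and 1309 of all genes (848 higher and 461 lower) instead of 2240. Requiring a 1.5-fold difference, 1 FPKM or the most abundant transcript alone left the Schlafen count at 3. The 1 FPKM requirement could not change that count, since all members were above it. The family ratio of 1.08 became 1.01 after scaling by the median gene and 1.14 with the most abundant transcripts. The members' median log2 fold of 0.31 became 0.23 with that scaling, 0.33 with a pseudocount of 0.1 FPKM and 0.20 with 5 FPKM. Of 42 alternatives for single members, 40 kept direction and call, 2 lost the call (Slfn5 and Slfn8 at 0.01) and 0 changed direction. Many of the 40 were fixed in advance. A pseudocount cannot alter a call or a direction, and no member lay below the 1 FPKM floor. Scaling by the median gene kept the deposited p-values, so it could remove a member's call only by reversing its direction and could add none. The threshold of 0.01 could neither change a direction nor add a call. The most abundant transcript alone gives a different value only for Slfn4 and Slfn8. Leaving out replicates was not run because the table has no values per library. No paired analysis was possible because the table gives 1 value per population. Without read counts, the precision of low members such as Slfn3 and Slfn9 is unknown.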
